A study of Mus musculus with 3 samples.

Results

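Rgs1, Rgs2, Rgs3, Rgs10, Rgs16 and Rgs19 are 6 genes for regulators of G protein signalling, and they are described here in immune cells of inflamed sciatic nerve. They were taken as a listed set, 6 of the 32285 gene rows of the data, and were selected on their levels (UMI counts) across the cell classes of these same libraries. Those levels are therefore given as a description, with no test. RGS proteins bind the activated alpha subunit of heterotrimeric G proteins and speed up its hydrolysis of GTP, which shortens the signal of the receptor above it. The receptors concerned include chemokine receptors and the receptors for sphingosine 1-phosphate and other lipids, which guide leukocytes into, within and out of tissue. Several RGS genes are known to be switched on when lymphocytes are activated.

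The cells were CD45+ leukocytes sorted from the sciatic nerve of neuropathic NOD.AireGW/+ mice, after perfusion through the heart and digestion of the nerve with collagenase. These mice carry 1 mutant copy of Aire, which is needed for deletion of self-reactive T cells in the thymus, on the nonobese diabetic (NOD) background. There were 3 libraries in 1 group, and library 1 and library 2 each held 1 mouse while library 3 was a pool of 2 mice. The labels give no age or sex, and the paper's methods state that female mice were used. All 4 mice were neuropathic carriers, and no control group was analysed here. Cell states were therefore compared within libraries, and no effect of disease or genotype was measured.

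The deposited matrices held 3926, 8311 and 1533 cell barcodes and 22983991, 55120460 and 3399733 UMIs in libraries 1 to 3 (a UMI, or unique molecular identifier, stands for 1 captured transcript). After filtering 13637 cells remained, with medians of 3956, 4632.5 and 1726 UMIs. Pairs of libraries shared 7 to 35 barcodes, at most 0.913% of the smaller library. Library 3 was the shallowest and stood apart in its monocytes, where a list of neutrophil genes reached 16836 CPM against 8.20 and 11.2 in libraries 1 and 2. Library 1 came without a gene list of its own and was read in the row order of the other 2 libraries.

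Cells were assigned to 9 classes from UMIs of marker genes, and 7907 cells (58.0%) fell into a class. These were conventional CD4 T cells (Cd4 without Foxp3), Foxp3+ CD4 T cells, CD8 T cells with Havcr2, CD8 T cells with Gzmk and without Havcr2, natural killer (NK) cells, B cells, macrophages, monocytes and dendritic cells. CD8 T cells with neither Havcr2 nor Gzmk (256, 384 and 103 cells in libraries 1 to 3) were outside the 9 classes. They are part of the CD8 T cells in the comparisons of states. Genes not used for the gates were checked in each class. All 4 checked for the Foxp3 class (Il2ra, Ctla4, Ikzf2 and Tnfrsf18) were highest there, as were Mrc1, Adgre1, Ms4a7 and Cd68 in macrophages, Pax5, Cd22 and Fcmr in B cells, and Klrb1c, Klre1, Gzma, Eomes and Txk in NK cells. The separation was less clean elsewhere. Cd28 was highest in conventional CD4 T cells but Cd5, Cd6 and Icos were higher in the Foxp3 class, Pdcd1 and Tox were highest in Havcr2 CD8 T cells but Lag3 and Tigit were higher in the Foxp3 class, and of the dendritic genes checked Batf3 was highest in dendritic cells while Irf8, Itgax, Cd83 and H2-DMb2 were not. Macrophages came almost wholly from library 2, with 2828 cells against 12 in library 1, and the 4 macrophages of library 3 were left out as fewer than 10 cells. Havcr2 CD8 T cells (288, 121 and 16 cells), Foxp3 T cells (252, 184 and 23) and dendritic cells (34, 178 and 16) were also few in library 3.

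Levels are given as CPM, the UMIs of a gene relative to all UMIs of that class in that library, scaled to 1000000, and they are compared between classes for 1 gene at a time and not between genes. In all cells together Rgs1 had 23320, 48662 and 8038 UMIs in libraries 1 to 3, and Rgs16 had 5763, 4022 and 787. Rgs3 was the most sparsely counted in library 3, with 90 UMIs, so its values there carry wide counting errors. The intervals given below cover counting error only.

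Rgs1, a regulator best known for dampening chemokine receptor signals in lymphocytes, is encoded on the minus strand at chr1:144242296-144249242 (mm10, ENSMUSG00000026358). In conventional CD4 T cells it stood at 1914, 1597 and 3818 CPM in libraries 1 to 3, which gave 2443 ± 1201 (SD, n = 3). In Foxp3 T cells it was 1402, 1123 and 3348 CPM, lower than in conventional CD4 T cells in 3 of 3 libraries although the ranges over libraries overlapped. Havcr2 CD8 T cells (1768 ± 1132 CPM) and Gzmk CD8 T cells (1446 ± 705) followed. Library 3 was above the other libraries in all 4 of these T cell classes and made up most of their spread. CD8 T cells with neither Havcr2 nor Gzmk, outside the 9 classes, had 1545 ± 319 CPM, more than Havcr2 CD8 T cells in libraries 1 and 2. Below the T cells came dendritic cells at 1031 ± 177 CPM, macrophages at 958 ± 324 (1187 and 729 in libraries 1 and 2), NK cells at 901 ± 359 and monocytes at 423 ± 183. B cells had the lowest mean, at 146, 178 and 237 CPM, although in library 3 monocytes were lower, at 220 CPM. The 12 macrophages of library 1 carried the T cell genes Cd6, Cd28 and Icos at a summed 736 CPM against 161 in library 2, and all macrophage values of library 1 share this limit. The ratio of conventional CD4 T cells to B cells was 13.1, 8.98 and 16.1, so the ends of the order were far apart in every library. Among neighbours in the order only NK cells and monocytes, and macrophages and NK cells in the 2 libraries that had both, had ranges that did not overlap.

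The fraction of cells with at least 1 Rgs1 UMI was counted after thinning every cell to 1000 UMIs, because deeper cells show a gene more often. It was 67.0% ± 9.36 of conventional CD4 T cells, 71.8% ± 6.44 of Foxp3 T cells, 56.1% ± 10.6 of Gzmk CD8 T cells and 8.90% ± 2.62 of B cells (n = 3 each). Without thinning the shares were 82.4%, 89.8%, 82.4% and 18.0%. T cell genes that B cells should lack were used as a measure of free RNA, scaled to their own level in T cells. Rgs1 in B cells stood at 7.63%, 11.1% and 6.20% of its conventional CD4 level, and the summed Cd6, Cd28 and Icos at 3.35%, 2.39% and 1.91%, so Rgs1 was above that measure in 3 of 3 libraries. The measure covers free RNA of T cells, whereas Rgs1 was also counted in myeloid and NK cells. A value above it therefore does not separate expression from free RNA, and how much of Rgs1 in B cells was free RNA was not tested. The order of the Foxp3 and conventional CD4 classes differed between CPM and share, and no order is read between them.

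**Figure D1:**
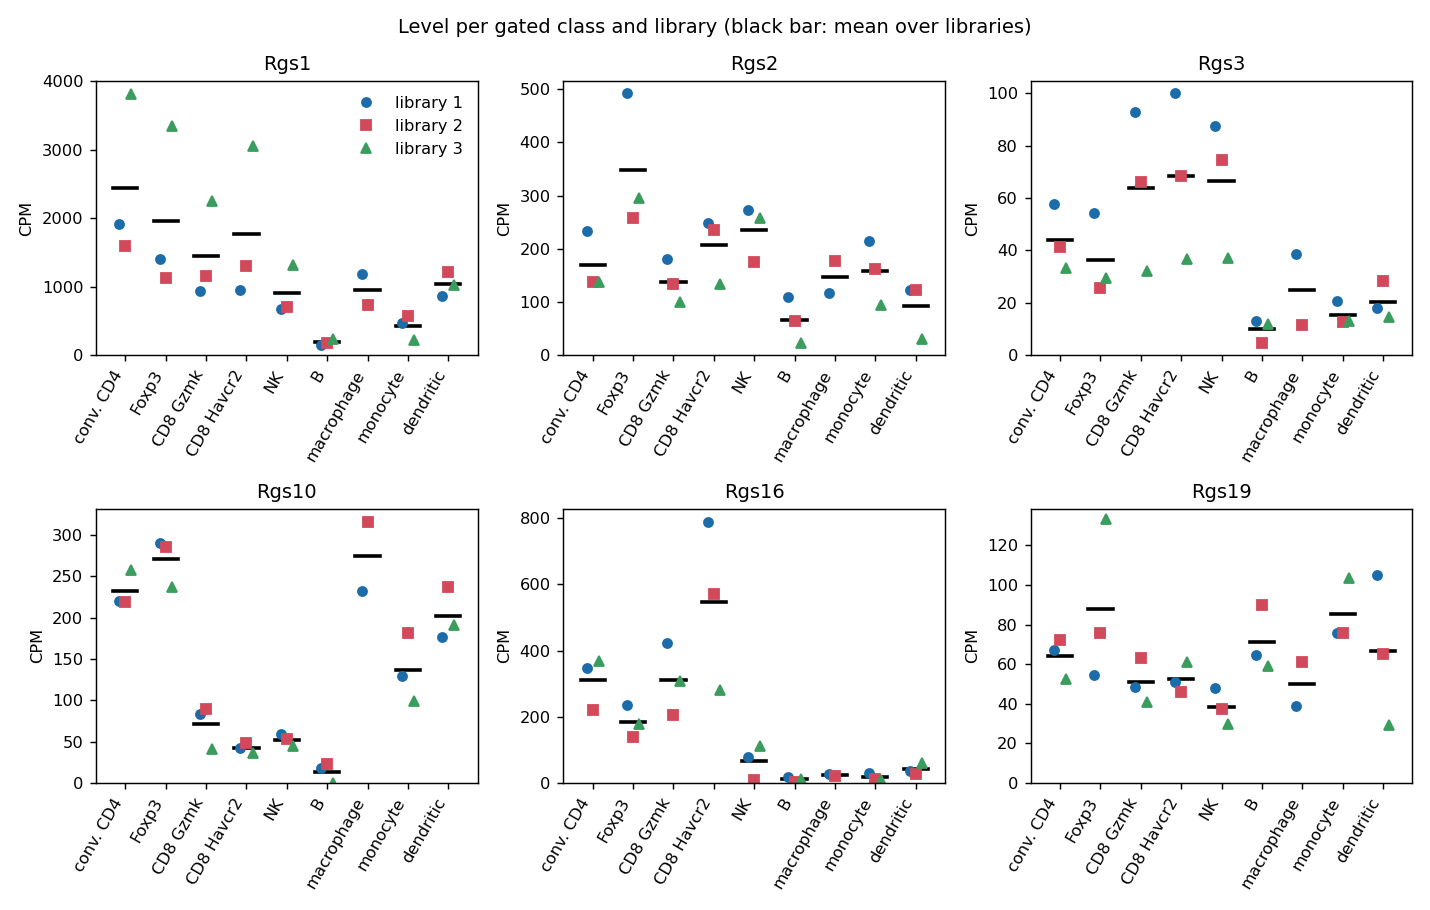
Level of each of the 6 genes in the 9 cell classes, with 1 panel per gene. The vertical axis is CPM (UMIs of the gene per 1000000 UMIs of the class), each coloured point is 1 library and the black bar is their mean. Rgs1 falls from conventional CD4 T cells (mean 2443 CPM) to B cells (187), Rgs10 is lowest in B cells with Havcr2 CD8 T cells next (42.1), and Rgs16 is highest in Havcr2 CD8 T cells (547), while the Rgs19 classes lie within 38.3 to 87.8 CPM.

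Rgs16, which acts on the Gi and Gq classes of alpha subunit and is known as a gene induced on lymphocyte activation, lies on the plus strand at chr1:153740349-153745468 (mm10, ENSMUSG00000026475). Its last 1917 bases overlap the antisense gene Gm28513, and the strand setting of the counting is not given in the sources used here. On average Rgs16 was highest in Havcr2 CD8 T cells, at 789, 571 and 281 CPM (547 ± 255, n = 3). Gzmk CD8 T cells had 422, 206 and 308 CPM, so that Havcr2 CD8 T cells were higher in libraries 1 and 2 (1.87- and 2.77-fold) but not in library 3 (0.913-fold), where the class held 16 cells. Conventional CD4 T cells were level with Gzmk CD8 T cells on average, at 347, 220 and 368 CPM. CD8 T cells with neither Havcr2 nor Gzmk had 196, 222 and 425 CPM. In library 3 they were above the Havcr2, Gzmk and conventional CD4 classes. Foxp3 T cells were lower than conventional CD4 T cells in every library, at 236, 139 and 178 CPM or 0.680, 0.631 and 0.483 of their level, with overlapping ranges. A gap followed, since NK cells (66.1 ± 52.2 CPM) did not overlap with Foxp3 T cells.

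Rgs16 in the remaining classes ranged from 40.5 ± 16.7 CPM in dendritic cells to 10.2 ± 7.92 in B cells. At 1000 UMIs it was found in 34.9% ± 9.21 of Havcr2 CD8 T cells and 21.8% ± 4.35 of conventional CD4 T cells (73.7% and 33.5% without thinning), against 4.87% of macrophages, 4.37% of dendritic cells, 1.02% of B cells and 0.766% of monocytes. Relative to conventional CD4 T cells, Rgs16 stood at 7.43% and 8.94% in macrophages and at 8.71%, 5.85% and 2.35% in monocytes, and the T cell genes Cd6, Cd28 and Icos at 26.9% and 11.5% and at 10.7%, 11.1% and 1.86%. In dendritic cells the values were 10.4%, 12.0% and 16.0% for Rgs16 and 9.99%, 12.7% and 11.9% for the T cell genes, and in B cells 4.95%, 0.727% and 3.22% against 3.35%, 2.39% and 1.91%. Rgs16 was thus below the T cell genes in macrophages in both libraries and in monocytes in 2 of 3, and was on either side of them in dendritic cells and B cells. How much of Rgs16 in these 4 classes was free RNA was not tested.

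Rgs2, a small RGS protein with a preference for the Gq class of alpha subunit, lies on the minus strand at chr1:143999338-144004161 (mm10, ENSMUSG00000026360). It was highest in Foxp3 T cells, at 492, 259 and 296 CPM (349 ± 125, n = 3). Conventional CD4 T cells had 234, 138 and 138 CPM, and the Foxp3 class was 2.10, 1.88 and 2.14 times as high within libraries, with ranges that did not overlap. NK cells (236 ± 52.6 CPM) and Havcr2 CD8 T cells (206 ± 62.4) came between these classes. Havcr2 CD8 T cells exceeded Gzmk CD8 T cells (138 ± 40.6 CPM) by 1.38-, 1.75- and 1.35-fold within libraries. CD8 T cells with neither Havcr2 nor Gzmk had 239 ± 51.3 CPM, and Havcr2 CD8 T cells exceeded them in only 1 of 3 libraries. Dendritic cells (91.8 ± 54.0) and B cells (65.8 ± 42.9) were at the low end. After thinning Rgs2 was found in 29.6% ± 5.81 of Foxp3 T cells, 12.9% ± 1.69 of conventional CD4 T cells and 6.45% ± 3.31 of B cells, and without thinning in 54.3%, 27.4% and 16.1%.

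The bases just before the transcription start sites of Rgs16 and Rgs2 are shown because these genes, unlike the others with a promoter entry, were both called higher in Cxcr6+ CD8 T cells. Both are the 250 bases before the RefSeq start in GRCm38.p6, written 5′ to 3′ on the strand of the gene, at chr1:153740103-153740352 (plus strand) for Rgs16 and chr1:144004150-144004399 (minus strand) for Rgs2. Capitals mark every match, on either strand, to the CCAAT box (CCAAT, read as ATTGG on the other strand), the GC box (GGGCGG or CCGCCC) and the core of the cyclic AMP response element (TGACG or CGTCA).
Rgs16: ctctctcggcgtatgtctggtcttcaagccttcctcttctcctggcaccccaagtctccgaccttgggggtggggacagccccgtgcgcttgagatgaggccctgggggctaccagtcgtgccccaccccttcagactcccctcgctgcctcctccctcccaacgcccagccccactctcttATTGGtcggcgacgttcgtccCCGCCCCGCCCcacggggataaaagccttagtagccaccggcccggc
Rgs2: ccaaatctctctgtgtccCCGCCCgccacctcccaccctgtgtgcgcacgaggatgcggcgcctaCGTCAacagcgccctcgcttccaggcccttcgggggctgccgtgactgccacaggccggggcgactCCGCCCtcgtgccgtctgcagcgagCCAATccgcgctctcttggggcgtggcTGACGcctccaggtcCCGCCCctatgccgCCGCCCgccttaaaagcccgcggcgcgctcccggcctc
The Rgs16 stretch has a GC content of 66.4% and holds 1 CCAAT box, whose first base is 68 bases before the start, and 2 GC boxes that overlap each other at 47 and 42 bases before it. The Rgs2 stretch has a GC content of 72.4% and holds 4 GC boxes, 1 CCAAT box and 2 cyclic AMP response element cores, 185 and 67 bases before the start. Among all 32851 RefSeq promoter windows of 300 bases, 37.4% held a CCAAT box, 35.7% a GC box and 20.8% the TGACG core, so each of these matches is common. The AP-1 site (TGANTCA, in 7.81% of windows) matched in neither window. RefSeq windows were found for 5 of the 6 genes, all except Rgs1, and these matches describe letters and not binding.

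Rgs10, one of the smallest RGS proteins and one known from microglia and macrophages, is on the minus strand at chr7:128373621-128418758 (mm10, ENSMUSG00000030844) and shares 3374 bases with Gm15503, a transcript on the same strand. Macrophages had 232 and 316 CPM, Foxp3 T cells 290, 285 and 237, and conventional CD4 T cells 221, 219 and 257. In Gzmk CD8 T cells it was 82.8, 89.8 and 41.1 CPM and in Havcr2 CD8 T cells 41.9, 47.8 and 36.7 CPM. Conventional CD4 T cells were therefore 2.67, 2.44 and 6.26 times as high as Gzmk CD8 T cells and 5.27, 4.58 and 7.01 times as high as Havcr2 CD8 T cells, without overlap. CD8 T cells with neither Havcr2 nor Gzmk had 112 ± 17.5 CPM, more than either of these CD8 classes in every library. Dendritic cells (202 ± 31.3 CPM) and monocytes (137 ± 41.4) lay between the CD4 and CD8 classes, and monocytes did not overlap with Gzmk CD8 T cells, the next class down. NK cells had 52.0 ± 7.36 CPM. In B cells Rgs10 was 17.9 and 22.4 CPM in libraries 1 and 2 and had 0 of 84431 UMIs in library 3, for which the exact upper 95% limit was 43.7 CPM. Its thinned share was 23.9% ± 2.09 of Foxp3 T cells, 18.0% ± 4.08 of conventional CD4 T cells, 2.91% ± 2.59 of Havcr2 CD8 T cells and 0.610% ± 0.578 of B cells, and the unthinned shares were 53.6%, 37.5%, 18.2% and 3.83%. In B cells Rgs10 was at 8.10%, 10.2% and 0% of its conventional CD4 level, against 3.35%, 2.39% and 1.91% for the T cell genes. These genes do not cover free RNA of macrophages, where Rgs10 was high, and its part was not tested. In the macrophages of library 2 Rgs10 was found in 27.4% of thinned cells against 5.65% for Icos, whereas the 12 macrophages of library 1 had more of Icos (33.3%) than of Rgs10 (8.33%).

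Rgs3, a regulator of Gi and Gq signals, spans 144.155 kb on the plus strand at chr4:62559847-62704001 (mm10, ENSMUSG00000059810) and overlaps the antisense gene Gm11209 over 6036 bases. Havcr2 CD8 T cells had 99.9, 68.5 and 36.7 CPM, NK cells 87.4, 74.7 and 36.9, and Gzmk CD8 T cells 92.8, 66.0 and 32.3. These 3 cytotoxic classes were within 1.04-fold of their neighbours on average and their order changed between libraries. Conventional CD4 T cells (44.0 ± 12.5 CPM) were above Foxp3 T cells (36.5 ± 15.6) in 3 of 3 libraries, with overlapping ranges. Dendritic cells had 20.3 CPM, monocytes 15.3 and B cells 9.84 on average. After thinning Rgs3 was found in 7.06% ± 3.55 of Gzmk CD8 T cells and 4.24% ± 2.06 of conventional CD4 T cells (21.2% and 11.8% without thinning), and in 0.723% of B cells and 0.969% of dendritic cells (3.28% and 13.1% without thinning). In B cells its level was 22.4%, 11.7% and 35.7% of the conventional CD4 level, against 3.35%, 2.39% and 1.91% for the T cell genes. In dendritic cells its level was 31.3%, 68.4% and 44.4% of the conventional CD4 level, above the 9.99%, 12.7% and 11.9% of the T cell genes. The T cell genes do not cover free RNA of NK cells or other classes with Rgs3, and its part was not tested. No pair of neighbours was separated beyond the spread of the libraries.

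Rgs19, also called GAIP, is a regulator of the Gi class and lies on the minus strand at chr2:181688419-181693977 (mm10, ENSMUSG00000002458). Foxp3 T cells had 54.4, 75.6 and 133 CPM, monocytes 75.9, 76.0 and 104, and B cells 64.4, 89.7 and 59.2. The lowest class, NK cells, had 48.1, 37.3 and 29.6 CPM. All neighbours in the order overlapped, and the class means ran from 38.3 to 87.8 CPM. The thinned share lay between 2.70% in macrophages and 8.67% in dendritic cells (31.9% and 34.3% without thinning), with no class far from the others. It was the only 1 of the 6 genes whose level in B cells was among the upper 3 classes.

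**Figure D2:**
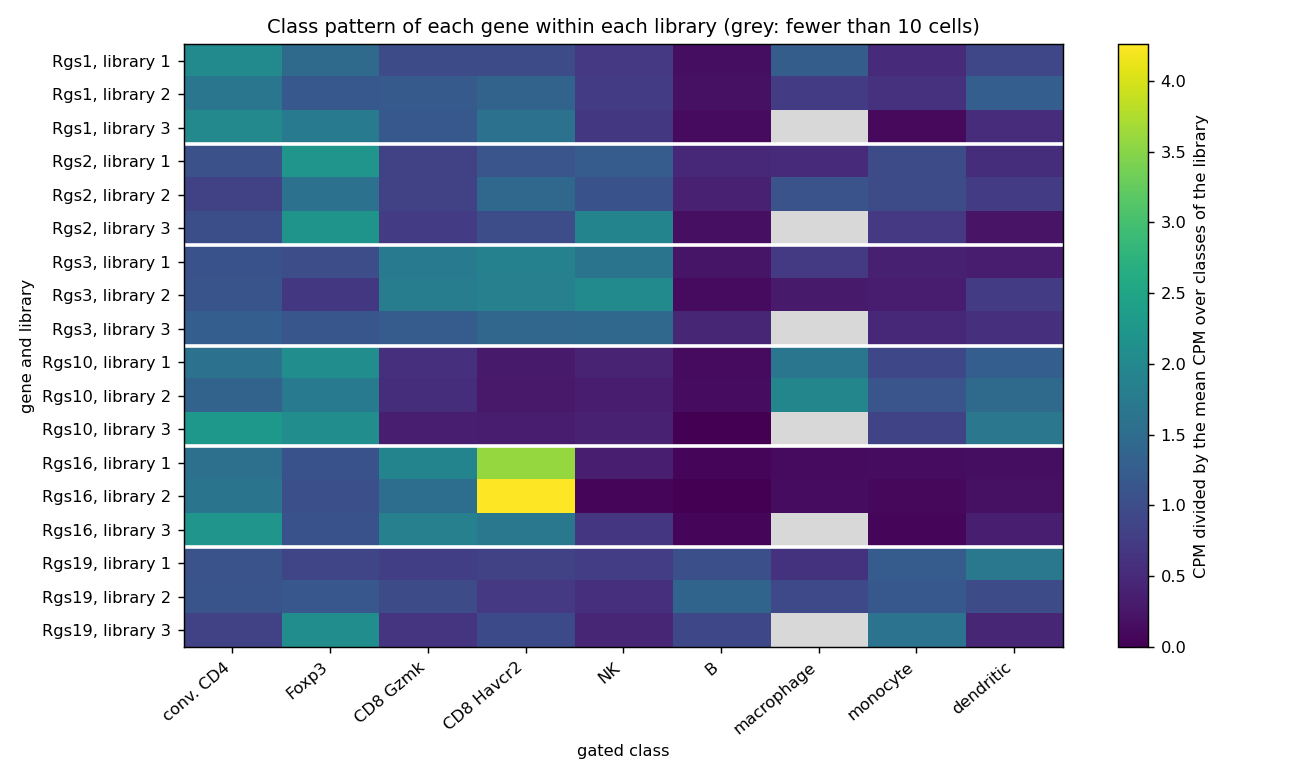
Each gene's level relative to its own mean over the classes of a library. Rows are genes in each library, columns are the 9 classes, colour is the ratio of CPM to that mean, and grey marks a class with fewer than 10 cells. In every library Rgs1 is highest in conventional CD4 T cells and Rgs2 in Foxp3 T cells. Rgs10 is high in Foxp3 and conventional CD4 T cells and low in the CD8 classes shown. Rgs16 is highest in Havcr2 CD8 T cells in libraries 1 and 2 but not in library 3.

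**Figure D3:**
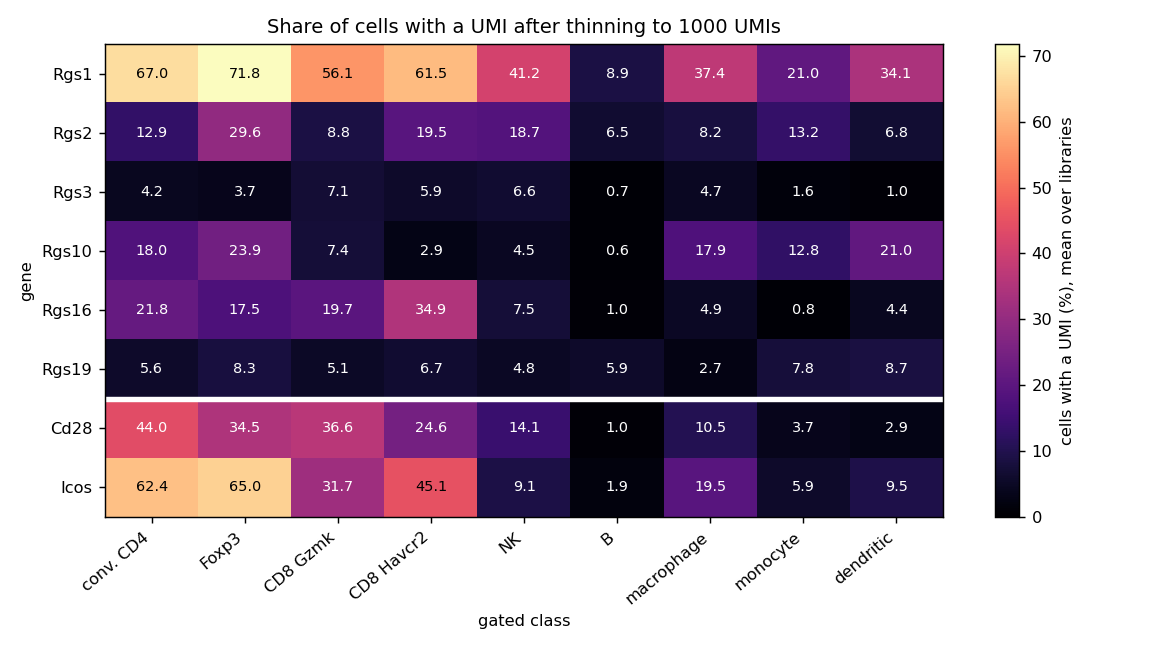
Percentage of cells with at least 1 UMI after thinning each cell to 1000 UMIs, as the mean over libraries, for the 6 genes and for the T cell genes Cd28 and Icos. Rows are genes and columns are cell classes. Rgs1 reaches 71.8% in Foxp3 T cells, and Rgs16 reaches 34.9% in Havcr2 CD8 T cells.

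The 6 genes did not share 1 pattern. Over the 26 sums of a class in a library, with log2(CPM + 1) centred within each library, Pearson's r was 0.79 between Rgs1 and Rgs16, 0.76 between Rgs3 and Rgs16, 0.28 between Rgs10 and Rgs16 and -0.43 between Rgs3 and Rgs19. The sums of a library share its depth and mice, and r is given as a description. Among 2765 genes with a mean of at least 50 CPM that no gate used, the pattern of Rgs1 was most like those of Cd28 (0.916), Thy1 (0.903) and Orai1 (0.895), and that of Rgs16 most like those of Gstp3 (0.941), Lat (0.927) and Batf (0.906). Rgs2 was nearest to Slc9a3r1 (0.861), Il18r1 (0.848) and Tnfrsf1b (0.838), and Rgs3 to Ms4a4b (0.932), Nkg7 (0.894) and Acot7 (0.891). Rgs10 was nearest to Itm2c (0.918), Arl4c (0.894) and Arrb2 (0.871), and Rgs19 to Smarcb1 (0.780), Snx20 (0.753) and Kdelr1 (0.697), the lowest values of the set. Several of these places rested on library 3, without which Cd28, Thy1 and Orai1 ranked 20, 14 and 35 for Rgs1, Slc9a3r1 and Il18r1 ranked 43 and 147 for Rgs2, Smarcb1 and Kdelr1 ranked 31 and 141 for Rgs19, and Acot7 ranked 16 for Rgs3, whereas Itm2c stayed at 1 for Rgs10 and Gstp3 at 2 for Rgs16.

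The genes were next compared between states of 1 cell type within each library, a different contrast from the class levels on which the genes were selected, although earlier results of these data were known when the comparisons were chosen. UMIs were summed per library and state and tested with edgeR's quasi-likelihood test with the library as a block, and adjusted p-values cover all genes tested. The states share mice, so the p-values concern differences within libraries, of which there were 2 or 3. With so few libraries edgeR borrows its estimate of spread from all genes. A small p-value is therefore not a measure of that gene's own spread over libraries. The calls rest on this pairing of states within libraries, since with no block none of the 6 genes was called in any comparison (adjusted p from 0.227 for Rgs16 in mature dendritic cells to 1.00). A cell counts as positive from 1 UMI of the gate gene, so deeper cells enter the positive group more often, and median UMIs are given beside each comparison.

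Conventional CD4 T cells with Il21, the cytokine on which the study centred, were compared with those without it in libraries 1 and 2 (78 and 127 cells against 506 and 639). Library 3 had 7 Il21+ cells and was not in the fit. Rgs16 was 291 CPM in Il21- and 640 CPM in Il21+ cells of library 1, and 195 against 313 in library 2. It was higher in the positive cells of both libraries and rose by 0.93 (SE 0.14) on the log2 scale (adjusted p = 0.0179). Rgs1 was 1841 against 2294 CPM and 1534 against 1831, a log2 difference of 0.30 (SE 0.07) that did not pass (adjusted p = 0.124). Thus 1 of the 6 genes passed, where 1.08% of the 8217 genes tested were called and 0.694% were called higher (0.389% lower). Il21+ cells had median UMIs of 3629 and 3508 against 2866 and 2480 and immediate-early genes at 6176 and 5740 CPM against 4907 and 4432, and the part of the immediate-early genes was not tested. With gates set on cells thinned to 1000 UMIs the Rgs16 difference was 0.49 and did not pass (adjusted p = 0.842). Among Cxcr6+ conventional CD4 T cells alone, an alternative chosen after seeing the data, Rgs16 was 433 against 810 CPM in library 1 but 346 against 293 in library 2, and the call was lost (log2 difference 0.35, adjusted p = 0.881, with 4.39e-10 to 1.00 over all settings).

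Cxcr6 encodes a chemokine receptor that couples to Gi proteins and is carried by T cells that stay in tissue. In conventional CD4 T cells, Cxcr6+ cells numbered 256, 212 and 18 and Cxcr6- cells 328, 554 and 156. Rgs1 was 1227 CPM in Cxcr6- and 2760 in Cxcr6+ cells of library 1, 1185 against 2670 in library 2 and 3157 against 9753 in library 3. Rgs1 was higher in the positive cells of each library, above every Cxcr6- value of libraries 1 and 2, and rose by 1.18 (SE 0.14) on the log2 scale (adjusted p = 1.38e-14). Rgs16 was 232 against 489, 177 against 334 and 335 against 663 CPM, and rose by 0.93 (SE 0.13, adjusted p = 2.29e-11). Rgs2 was 227 against 242, 118 against 190 and 135 against 166 CPM, higher in 3 of 3 libraries, and did not pass (log2 difference 0.33, SE 0.14, adjusted p = 0.226). Rgs3, Rgs10 and Rgs19 differed by 0.34, 0.06 and 0.07 and did not pass, with Rgs3 at 0 UMIs in the 18 Cxcr6+ cells of library 3. The 2 genes that passed compare with 4.71% of 7105 genes called, 2.51% higher and 2.21% lower. Median UMIs were 3125, 2656.5 and 1789 in Cxcr6+ and 2882.5, 2539 and 1750.5 in Cxcr6- cells, and with gates set on cells thinned to 1000 UMIs the difference of Rgs16 was 0.54 and no longer passed (adjusted p = 0.261, with 2.29e-11 to 1.00 over all settings).

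In CD8 T cells 645, 549 and 77 cells were Cxcr6+ and 337, 444 and 169 were Cxcr6-. Rgs1 was 739 CPM in Cxcr6- and 1126 in Cxcr6+ cells of library 1, 830 against 1500 in library 2 and 1760 against 2868 in library 3, and rose by 0.68 (SE 0.06, adjusted p = 3.78e-07). Rgs16 was 280 against 597, 174 against 344 and 304 against 406 CPM, and rose by 0.87 (SE 0.10, adjusted p = 6.50e-06). Rgs2 was 154 against 259, 99.4 against 222 and 113 against 187 CPM, and rose by 0.87 (SE 0.12, adjusted p = 2.80e-05). All 3 genes were higher in the Cxcr6+ cells of every library. Rgs10 went the other way, from 104 to 66.6, from 105 to 82.7 and from 68.1 to 46.7 CPM, and fell by 0.53 on the log2 scale (SE 0.13, adjusted p = 0.0113). Rgs3 (0.30, adjusted p = 0.185) and Rgs19 (0.01, adjusted p = 0.978) did not pass. Of 8495 genes 11.9% were called, 6.26% higher and 5.65% lower, against 3 and 1 of the 6 genes here.

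Cxcr6+ CD8 T cells held more cells with Havcr2, 39.2%, 19.5% and 16.9% against 10.4%, 3.15% and 1.78%, and median UMIs of 4291, 3971 and 2505 against 3826, 3061.5 and 2009. Within Gzmk CD8 T cells, which lack Havcr2, an alternative chosen after seeing the data, Rgs1 (0.44, adjusted p = 4.84e-05), Rgs2 (0.91, adjusted p = 7.47e-06) and Rgs16 (0.67, adjusted p = 4.74e-05) still passed. Rgs10 did not (-0.13, adjusted p = 0.775), and its call also needed library 1 (adjusted p = 0.179 without it, with 0.00167 to 0.902 over all settings). The Rgs10 call was also lost with DESeq2 and with thinned gates, and was kept in 6 of 11 settings, the reported one included. With thinned gates Rgs2 was at 0.37 and did not pass (adjusted p = 0.437).

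**Figure D4:**
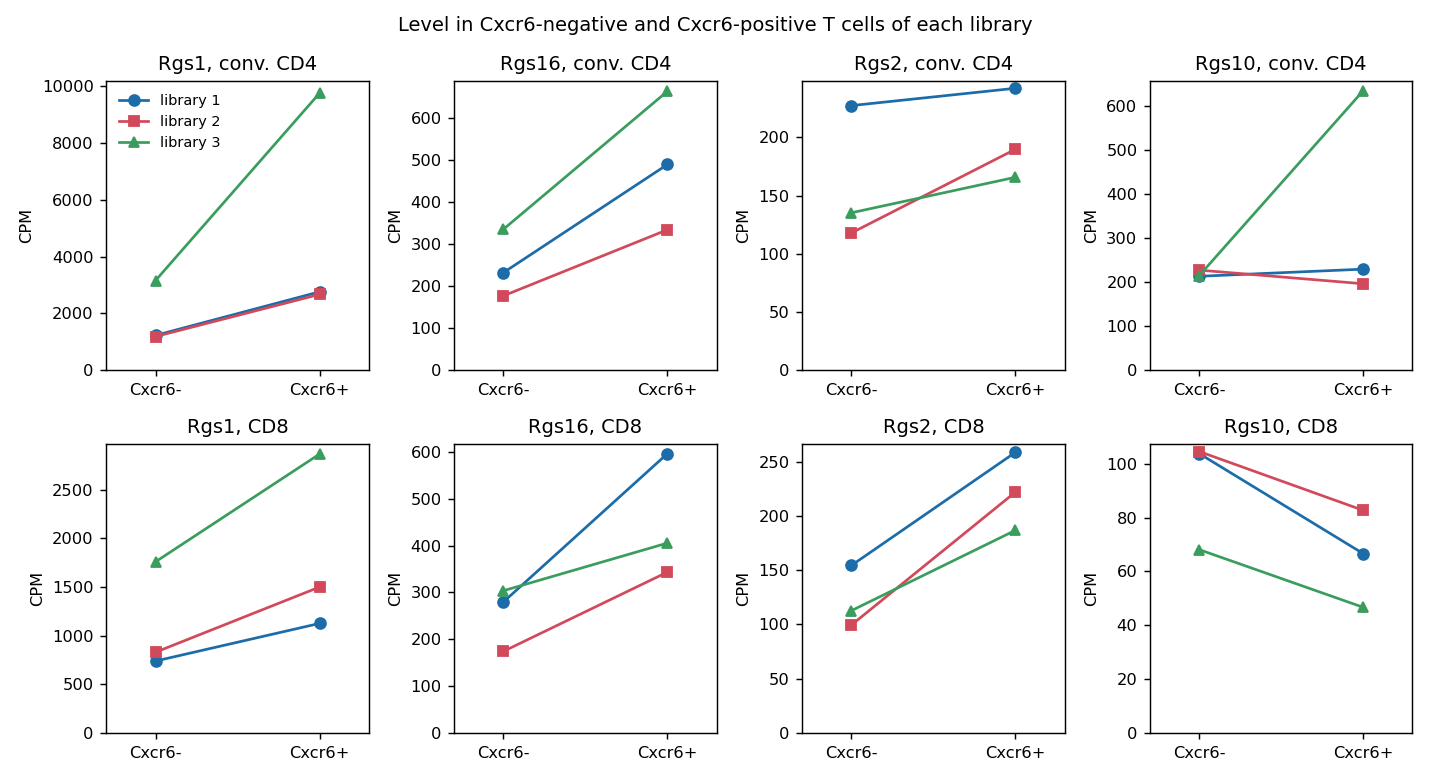
Rgs1, Rgs16, Rgs2 and Rgs10 in Cxcr6- and Cxcr6+ cells, with conventional CD4 T cells in the upper and CD8 T cells in the lower panels. The vertical axis is CPM and each line joins the 2 states of 1 library. Rgs1 and Rgs16 rise in all 3 libraries in both cell types, whereas Rgs10 falls in all 3 in CD8 T cells but only in library 2 in conventional CD4 T cells.

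Whether Cxcr6 went with a different change in CD8 than in conventional CD4 T cells was tested as an interaction, for which 1.25% of 8369 genes were called (0.645% higher and 0.609% lower) and none of the 6 was. The log2 change in CD8 T cells minus that in conventional CD4 T cells was -0.46 for Rgs1 (SE 0.16, adjusted p = 0.198), 0.54 for Rgs2 (SE 0.20, adjusted p = 0.265) and -0.54 for Rgs10 (SE 0.24, adjusted p = 0.390). It was 0.00 for Rgs16 (SE 0.20, adjusted p = 1.00). The calls of Rgs2 and Rgs10 in CD8 T cells only are therefore not shown to be particular to CD8 T cells.

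Dividing T cells, with at least 2 UMIs of Mki67 and Top2a together, numbered 171, 157 and 19, against 2176, 3103 and 1039 T cells with none. Rgs1 was 1451 CPM in non-dividing and 998 in dividing cells of library 1, 1537 against 962 in library 2 and 2908 against 2360 in library 3, and fell by 0.57 on the log2 scale (SE 0.14, adjusted p = 0.000548). Rgs10 was 160 against 110, 177 against 138 and 184 against 42.0 CPM, the last from 4 UMIs, and fell by 0.62 (SE 0.17, adjusted p = 0.00224). Rgs2 (303 against 222, 209 against 153 and 188 against 168 CPM) fell by 0.43 (SE 0.16, adjusted p = 0.0398). Rgs3 fell by 0.49 (SE 0.19, adjusted p = 0.0470), with a ratio of 0.772 (exact 95% interval 0.0914 to 2.92) from 2 UMIs in library 3. Rgs16, at 370 against 435, 203 against 222 and 293 against 315 CPM, did not pass (0.13, SE 0.16, adjusted p = 0.626), nor did Rgs19 (-0.18, adjusted p = 0.522). The 4 lower genes compare with 22.1% of 9199 genes called, 11.7% lower and 10.4% higher, and with a median difference of -0.11 over all genes.

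Dividing cells differed in makeup and depth, with CD8 T cells at 50.3%, 42.7% and 21.1% against 34.9%, 27.3% and 21.8%, and median UMIs of 7914, 11103 and 3962 against 3421, 2618 and 1746. Immediate-early genes were at 3192, 2872 and 2884 CPM against 4052, 4441 and 4063. Among CD8 T cells alone, in libraries 1 and 2 and chosen after seeing the data, Rgs1 still passed (-0.58, adjusted p = 0.00443) and Rgs2 (-0.15, 0.517), Rgs3 (-0.51, 0.0721) and Rgs10 (-0.51, 0.0782) did not, these values being log2 differences with adjusted p. The Rgs1 call in all T cells was lost without library 1 (adjusted p = 0.161) or library 2 (0.265), that of Rgs10 without library 1 (0.0916) or library 3 (0.101), and those of Rgs2 and Rgs3 without any 1 library. The calls of Rgs2 and Rgs3 were kept in 2 of 11 settings, the reported one included, and were also lost with DESeq2, with no filter, with thinned gates and with a lineage factor of 10. That of Rgs10 was also lost with DESeq2 (adjusted p = 0.149) and with thinned gates, and was kept in 5 of 11 settings. That of Rgs1 was also lost with thinned gates (adjusted p = 0.110). The direction stayed negative for these 4 genes in all 11.

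Mature dendritic cells, with at least 2 UMIs of Fscn1 and Ccr7 together, were compared with dendritic cells without either in libraries 1 and 2 (15 and 77 against 17 and 88 cells), since library 3 had 9 and 7. Rgs1 was 770 against 994 CPM in library 1 and 436 against 2225 in library 2, and rose by 1.48 (SE 0.40, adjusted p = 0.0270). Rgs16 was 29.3 CPM (4 UMIs) against 43.9 (8 UMIs) in library 1 and 3.44 (3 UMIs) against 53.1 (39 UMIs) in library 2, a ratio of 15.5 with an exact 95% interval of 4.92 to 78.2. Its log2 difference was 2.69 (SE 0.67, adjusted p = 0.0142). Rgs3 differed by 1.51 (SE 0.57, adjusted p = 0.162) and Rgs2 by -0.49 (adjusted p = 0.677), and neither passed. The difference was larger in library 2 than in library 1 for both genes, and both calls were lost with DESeq2 (adjusted p = 0.0821 for Rgs1 and 0.700 for Rgs16, with 0.00169 to 0.420 and 0.000508 to 0.700 over all settings). The 2 calls compare with 5.25% of 5560 genes called, 3.08% higher and 2.18% lower. Rgs16, at 4 and 3 UMIs in the other cells, entered the test through the mature cells, so its call is no measure of how often genes were higher. The T cell genes Cd6, Cd28 and Icos summed to 395 and 173 CPM in mature and 132 and 149 CPM in other dendritic cells, and their part in the Rgs16 result was not tested. Immediate-early genes were at 4718 and 3918 CPM in mature and 9513 and 5579 in other dendritic cells, and median UMIs were 13682 and 8801 against 6748 and 8773, whose part was not tested either.

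**Figure D5:**
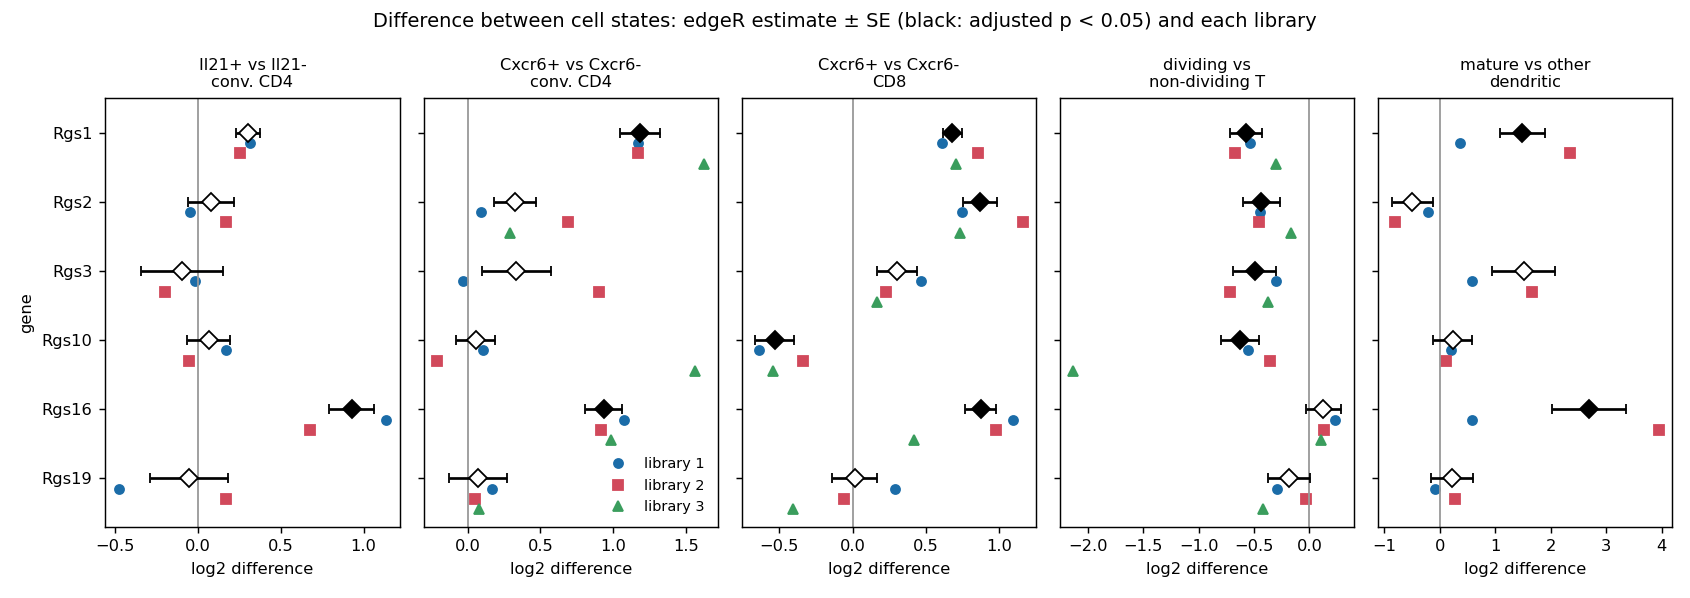
Log2 difference of the 6 genes in the 5 comparisons of cell states, positive where the gene was higher in Il21+, Cxcr6+, dividing or mature cells. Diamonds are edgeR estimates with bars of 1 SE, black where the adjusted p is under 0.05, and coloured points are single libraries. Rgs1 lies above 0 except in dividing cells, where it is at -0.57, and Rgs16 lies at 0.93, 0.93, 0.87 and 2.69 in the 4 other comparisons.

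Other genes of the pathway were taken from listed groups. Of 18 other RGS genes 4 reached 10 CPM in any class and only Rgs14, in conventional CD4 T cells at 52.0 CPM, reached 50, while 5 had no UMI in any class. Of 24 G protein subunit genes 13 reached 50 CPM, as did 28 of 36 receptor genes and 3 of 7 genes of receptor desensitisation (arrestins and receptor kinases).

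In Cxcr6+ CD8 T cells 3 of the 13 subunit genes tested were higher and none lower, with Gng2 at 0.78, Gnai2, the main Gi alpha subunit of leukocytes, at 0.41 and Gnb1 at 0.39, against 6.26% of all genes higher and 5.65% lower, and the median of the group was 0.06 against -0.01 for all genes. The call of Gnb1 was kept in 4 of 10 alternatives, and those of Gng2 and Gnai2 in 8 of 10. Of 19 receptors 4 were higher and 8 lower, led by Ccr7 (-2.92) and S1pr1 (-1.86), the receptors for lymph node entry and egress, Cx3cr1 (1.45) and Gpr183 (-1.08), with a median of -0.08. Rgs11 (-1.90) was lower, 1 of 2 other RGS genes tested, and 0 of 5 desensitisation genes passed. Rgs11, at 3.97, 1.01 and 3.59 CPM in Cxcr6+ cells, entered the test through the Cxcr6- cells. Cx3cr1, at 0 CPM in the Cxcr6- cells of library 3, entered it through the Cxcr6+ cells. These 2 calls are no measure of how often listed genes changed. In Cxcr6+ conventional CD4 T cells 1 of 14 subunits, Gng2 (0.66), was higher (2.51% of all genes were), and 3 of 20 receptors were higher and 4 lower, with Ccr7 at -1.93, Cxcr5 at -1.85 and S1pr1 at -1.54. Cxcr5, at 9.10, 1.35 and 0 CPM in Cxcr6+ cells, entered the test through the Cxcr6- cells, and its call is no measure of how often receptors were lower. The Gng2 call was kept in 4 of 9 alternatives and was lost without library 1 (adjusted p = 0.123), without library 2 (0.999) and with DESeq2 (0.798). The median difference was 0.05 for the subunits, 0.01 for the receptors and -0.03 for all genes. None of 3 desensitisation genes and 1 other RGS gene passed there.

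In Il21+ cells 0 of 15 subunits, 0 of 5 desensitisation genes and 0 of 2 other RGS genes passed. Of 23 receptors S1pr1 (-2.17) and P2ry10 (-0.78) were lower and Ptger2 (1.06), a prostaglandin E2 receptor, was higher, with a median of -0.23 against -0.01 for all genes, of which 0.694% were called higher and 0.389% lower. The calls of Ptger2 and P2ry10 were kept in 3 of 7 alternatives each and were lost with DESeq2 (adjusted p = 0.213 and 0.439), and that of S1pr1 was kept in 6 of 7. In dividing T cells 8 of 24 receptors were lower and none higher (median -0.38), where 11.7% of all genes were lower and 10.4% higher (median -0.11), led by Ltb4r1 (-2.04), S1pr1 (-1.82), P2ry10 (-1.29) and Gpr183 (-1.12). Ltb4r1, at 4.87, 6.79 and 0 CPM in dividing cells, entered the test through the non-dividing cells, and its call is no measure of how often receptors were lower. Gna13 (-0.58) and Gna15 (-0.54) were lower and Gnb2 (0.44) higher among 16 subunits, whose median was -0.05, Rgs14 was lower (-0.58), and 0 of 5 desensitisation genes passed. These calls outside the receptors held in few of 10 alternatives, 4 for Gna13, 3 for Gna15 and 2 each for Gnb2 and Rgs14, and all were lost with DESeq2 and without library 1 or library 2.

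In mature dendritic cells 3 of 15 subunits were lower, Gna15 (-2.25), Gna11 (-2.21) and Gng2 (-1.62), with a median of -0.13 against -0.04 for all genes, of which 2.18% were called lower. None of these 3 was called with DESeq2 (adjusted p = 0.229 for Gna15 and 0.881 for Gng2, and none given for Gna11). Rgs18 (-3.48) was lower, 1 of 3 other RGS genes tested. In mature cells Rgs18 was at 5.49 and 2.72 CPM and Gna11 at 10.98 and 4.09 CPM. Both genes entered the test through the other dendritic cells, and their calls are no measure of how often listed genes were lower. Of 20 receptors 2 were higher and 5 lower. Cxcr5 went from 0 and 1.15 CPM to 38.4 and 24.5, Adora2a, an adenosine receptor, from 0 and 10.3 CPM to 33.0 and 87.2, so that both were at 0 in the other cells of library 1 and entered the test only through the mature cells, and these 2 calls are no measure of how often receptors were higher. P2ry14 (-3.02) and Ccr9 (-2.54) led the lower genes, and P2ry14, at 16.5 and 5.45 CPM in mature cells, entered the test through the other dendritic cells. A list of B cell genes stood at 82.4 and 0 CPM in mature and 7.33 and 1.15 CPM in other dendritic cells, and its part in the Cxcr5 values was not tested. None of 4 desensitisation genes passed.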

How the data were processed

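UMI counts were measured in single CD45+ cells of 3 libraries, and 5′ libraries were aligned by the authors to mm10 using Cell Ranger (the submitters' processing notes also name Seurat). The headers of the matrices name Cell Ranger 5.0.1 and 6.1.2, so the libraries were not all counted with the same version. The values the authors deposited are UMI counts that were not normalized, in 1 matrix per library of the barcodes that Cell Ranger kept. No annotation of cells was used here. Library 1 had no gene list. In the order of the lists of libraries 2 and 3 its row totals had a Spearman correlation of 0.950 and 0.929 with theirs across genes, and 0.362 and 0.321 when shifted by 1 row.

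The limits of the study were applied (at least 300 UMIs, at most 5000 genes and at most 20% mitochondrial UMIs per cell), which kept 3848, 8256 and 1533 cells. A cell took the T, B or myeloid lineage with at least 2 UMIs of its markers and at least 3 times those of each other lineage, and classes were set by further markers. Scrublet's automatic threshold (scanpy 1.11.5) marked 0, 0 and 8 cells and had not worked, so doublets were kept, and the highest scores at 0.8% per 1000 cells (118, 545 and 19 cells) were left out as an alternative. Sums of fewer than 10 cells were left out. States were tested with edgeR 4.0.16 (quasi-likelihood test, TMM, filterByExpr, library as a block, Benjamini-Hochberg over all genes tested, adjusted p under 0.05) in R 4.3.3. The library pairs the states because both come from the same mice. The test was checked on simulated counts. DESeq2 1.42.0, no filter, no block, each library left out, thinned gates, lineage factors of 1 and 10 and narrower cells were alternatives.

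The 6 genes, lists and comparisons were chosen with earlier results of these data known. Genes are named as members, as the 3 most alike in pattern, or as the up to 4 largest calls of a list. The promoter sequences are RefSeq's, in GRCm38.p6, and the gene positions are from the mm10 annotation. Depth limits library 3 most. Some items of the lists are not reported here.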

Additional observations from a re-analysis of the deposited data

Results flagged for a closer look

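In the test of whether Cxcr6 went with a different change in CD8 than in conventional CD4 T cells, receptor genes of the listed groups were called (edgeR, adjusted over all genes), and values are given for Cxcr6- against Cxcr6+ cells of libraries 1 to 3. Gpr183, the receptor for oxysterols, was 248 against 113, 166 against 80.0 and 196 against 122 CPM in CD8 T cells, lower in Cxcr6+ cells of 3 of 3 libraries. In conventional CD4 T cells it was 134 against 148, 59.0 against 49.8 and 33.8 against 82.9 CPM, with no shared direction. The difference of changes was -1.26 (SE 0.28, adjusted p = 0.0127). It was lost with DESeq2 (adjusted p = 0.194), without library 1 (0.367), without library 3 (0.0926), without the block and with thinned gates.

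Ccr2, the receptor for monocyte chemoattractant Ccl2, was 142 against 353, 53.8 against 182 and 55.3 against 166 CPM in conventional CD4 T cells and 164 against 294, 101 against 140 and 94.3 against 129 CPM in CD8 T cells. It was higher in Cxcr6+ cells of every library in both, and the difference of changes was -0.88 (SE 0.21, adjusted p = 0.0163). It was lost without library 2 (adjusted p = 0.917), without library 3 (0.0805), without the block and with thinned gates (0.970).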

How the results depend on the processing

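Of the levels by class 474 stayed within 1 SD of the 3 libraries and 12 moved, 8 of them with a lineage factor of 10. Leaving out a library moved none of the 54 levels. It could not, since dropping 1 of the libraries behind an SD shifts their mean by less than that SD. Of the differences of the 6 genes between states 218 kept direction and side of the threshold, 47 lost the call, 4 gained it and 29, none of them called in the reported fits, changed sign. Of the named differences of listed genes 180 kept their call, 95 lost it and 2 changed sign. Shares, whose alternatives were another depth of thinning and no thinning, moved in 83 of them. The leading class changed for Rgs19 (to B cells with a lineage factor of 10, to dendritic cells without replicate 3, to monocytes with TMM), for Rgs3 (to NK cells with a factor of 1 or without replicate 1) and for Rgs10 (to Foxp3 T cells with a factor of 1 and without replicate 2 or 3).

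Without the replicate block 0 genes were called for Il21 (285 at an unadjusted p under 0.05, against 89 called with it and 54 by DESeq2), 2 for Cxcr6 in CD4, 6 for Cxcr6 in CD8, 392 for dividing cells (321 higher and 71 lower), 36 for mature dendritic cells and 0 for the interaction (187 unadjusted, 76 by DESeq2), and every call of the 6 genes was lost, while their differences stayed in the same direction (Rgs1 for Cxcr6 in CD4 was 1.20, adjusted p = 1.00). DESeq2 called 54, 49 (34 higher and 15 lower), 393, 812 (559 higher and 253 lower, against 960 and 1073 with edgeR) and 89 genes in the 5 comparisons. With no filter Il21 gave 284 and the interaction 192. Gates on thinned cells gave 15, 59, 152, 166 and, for the interaction, 2. A factor of 10 gave 237 for Il21 and 194 for Cxcr6 in CD4, and narrower cells 50 for Il21 and 462 for Cxcr6 in CD8 (dividing CD8 T cells gave 1488, 960 higher and 528 lower). Leaving out 1 library gave 61 to 449 for Cxcr6 in CD4, 506 to 1340 in CD8, 567 to 1446 for dividing cells and 51 to 65 for the interaction. Leaving out a library could not be run for Il21 and mature dendritic cells, nor thinned gates for the latter.

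Calls gained were those of Rgs1 for Il21 with no filter (adjusted p = 0.0324) or a factor of 10 (1.21e-05), and of Rgs3 with a factor of 10 for Cxcr6 in CD8 (0.0447) and in mature dendritic cells (0.0329).

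The changes of sign were as follows. For Il21, Rgs2 was at -0.82 with thinned gates and -0.034 with a factor of 10, and Rgs10 at -1.61 with thinned gates. For Cxcr6 in CD4, thinned gates gave Rgs2 -0.0022, Rgs19 -1.05, Rgs10 -0.16 and Gng2 -0.051, a factor of 10 gave Rgs10 -0.039, and leaving out 1 library gave ranges of -0.0025 (without replicate 1) to 0.15 for Rgs19, -0.11 (without replicate 2) to 0.71 for Rgs3 and -0.068 (without replicate 3) to 0.47 for Rgs10. For Cxcr6 in CD8, Rgs19 was at -0.025 with DESeq2, -0.077 without the block, -0.019 without doublet candidates, -0.73 with thinned gates, -0.062 in narrower cells and -0.16 (without replicate 1) to 0.081 with 1 library left out. In dividing cells thinned gates gave Rgs16 -0.39 and Gnb2 -0.65, and in mature dendritic cells a factor of 10 gave Rgs10 -0.13. For the interaction Rgs16 was at -0.033 with DESeq2, -0.012 without doublet candidates, -0.20 with a factor of 10 and -0.054 to 0.030 with 1 library left out, Rgs3 at -0.011 without doublet candidates, -0.27 with thinned gates, -0.016 with a factor of 10 and -0.45 to 0.58 with 1 library left out, and Rgs19 at 0.26 with thinned gates. The causes of these changes were not tested. Depth limited Rgs3 and Rgs19 most.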
